A study of Mus musculus with 26 samples.

Results

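The collagen genes described here are all genes of the arrays whose symbol has the form Col, a type number, the letter a and a chain number. This rule found 28 of the 6540 named genes measured. By textbook class, 7 encode fibrillar collagens (Col1a1, Col3a1, Col5a1, Col5a2, Col5a3, Col11a1 and Col11a2), 8 encode collagens of basement membranes (the 6 chains of type IV, Col4a1 to Col4a6, with Col15a1 and Col18a1) and 13 belong to other families. No filter on low values was applied, so all 28 were tested.

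Collagens are secreted proteins whose chains wind into triple helices. Fibrillar collagens assemble into the fibres that give connective tissue its tensile strength, and types I and III make up most of the connective tissue around muscle fibres. Type IV collagen forms the sheet-like network of the basement membrane that wraps each muscle fibre, and type VI forms a microfibril network just outside it. In dystrophic muscle, connective tissue can replace lost fibres, a process called fibrosis.

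The study measured RNA from 13 groups of mice on 26 arrays with 2 channels each. Wild type mice were bl6 and bl10. Dystrophin was missing in mdx and mdx3cv, a sarcoglycan in sgca, sgcb, sgcb2, sgcd and 1 further line that enters pooled values alone, dysferlin in dysf and sjl, and sarcospan in sspn, while hDMD carried human DMD. Each group had 2 RNA samples, each hybridised on 2 arrays, once per channel. The relation of sgcb2 to sgcb is known from its name alone, and the sources used here give no tissue, age, sex or background strain, so that strain and missing protein cannot be told apart in any line. Whether both samples of a group are from different mice is not stated, and p-values therefore reflect the spread among these samples alone, which may be technical.

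All values below are log2 differences, and unless stated otherwise they are relative to the mean of bl6 and bl10. They come from ratios between channels, so the arrays give no absolute level. No tissue is labelled, and ratios give no level at which tissue markers could be checked. A sample's value is the fitted level of its group plus the mean deviation of its 2 arrays, and so depends partly on the samples it was hybridised with. A gene is called higher or lower when its adjusted p from limma (Benjamini-Hochberg over 6540 genes) is under 0.05. The median residual SD was 0.49. The sign rests on channel 1 over channel 2, taken as likely because it puts the gene that a line lacks below wild type in 7 of 9 cases. Sgca in the sgca line was the clearest of these, at -4.33 ± 0.49 (SE, n = 2; limma adjusted p = 6.98e-05). None of the other cases was called, and the smallest were Sgcd in sgcd (-0.30 ± 0.45) and Dmd in mdx3cv (-0.46 ± 0.33). Dysf was not lower in dysf (0.55 ± 0.62) or sjl (0.76 ± 0.50), and whether the spots lie in the altered parts of these genes is not known.

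The first comparison asked which collagen genes differ when dystrophin or a sarcoglycan is missing. The 7 lines that lack dystrophin or a sarcoglycan, called DS lines below (14 samples), were averaged and set against the averaged wild type strains (4 samples). In the DS lines 15 of the 28 collagen genes were higher and 0 were lower, where 6.45% of all genes were called higher and 1.35% lower. Largest were Col8a1, a short-chain collagen of network-forming type VIII, at 2.90 ± 0.56, and Col14a1, which binds to the surface of collagen fibrils, at 2.51 ± 0.33. The median over the 28 genes was 0.75, against 0.06 over all genes. By class, 6 of 7 fibrillar genes were higher (median 1.18), 3 of 8 basement membrane genes (median 0.47) and 6 of 13 others (median 0.37). In 8 of the 28 genes, or 28.6%, every DS sample lay above every wild type sample, which held for 122 of all genes (1.87%).

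**Figure D1:**
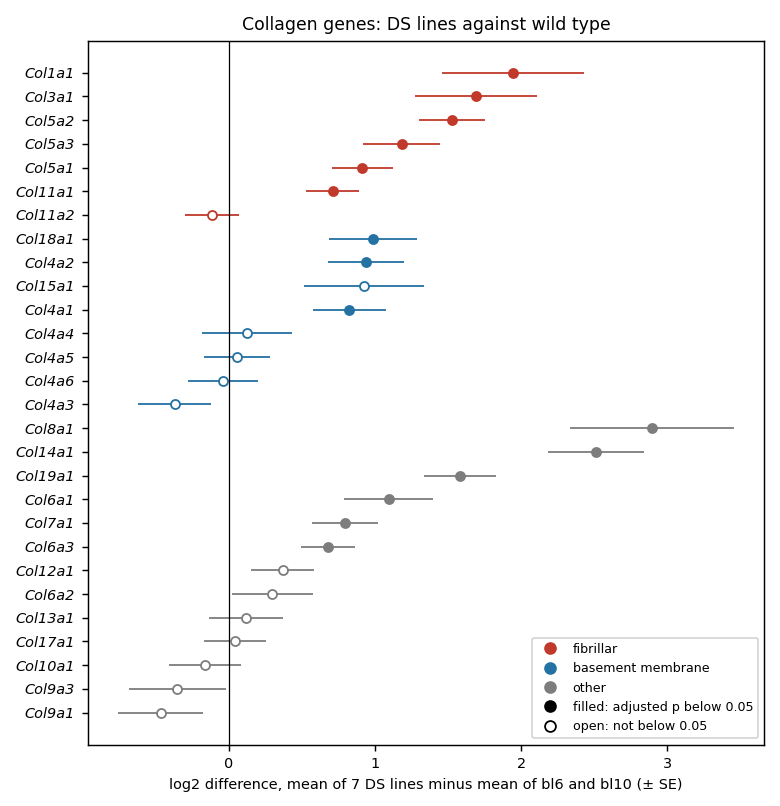
Log2 difference between the mean of the 7 DS lines and the mean of bl6 and bl10 for each of the 28 collagen genes (horizontal axis, bars ± SE), sorted within class. Filled points have a limma adjusted p under 0.05; all 15 of these lie to the right of 0, and Col8a1 lies farthest right at 2.90.

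Among the fibrillar genes, Col1a1 encodes the main chain of type I collagen, the most abundant collagen of connective tissue. Its values were -0.11 and 0.12 in the bl6 samples and 0.02 and 0.11 in the bl10 samples, and 0.31, 2.02 and 3.82 (lowest, median and highest) over the 14 DS samples. The groups did not overlap, and the wild type samples lay within a narrow band while the DS samples spread widely. The difference was 1.95 ± 0.49, or 3.85-fold (limma adjusted p = 0.019).

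Col3a1 encodes type III collagen, found with type I in extensible tissues. Its values were -0.34 and -0.08 in bl6, -0.12 and 0.64 in bl10, and 0.38, 1.74 and 2.75 (lowest, median and highest) over the DS samples. All but 1 of the 14 DS samples lay above the highest wild type sample, and the difference was 1.69 ± 0.42 (limma adjusted p = 0.0178). The 250 bases before its start are shown because Col3a1 had the largest difference among the called fibrillar genes for which a promoter window was matched. They come from RefSeq (GRCm38.p6, chr1:45311288-45311537, plus strand), and capitals mark the sequence TATAAA, which begins 117 bases before the start.
Col3a1: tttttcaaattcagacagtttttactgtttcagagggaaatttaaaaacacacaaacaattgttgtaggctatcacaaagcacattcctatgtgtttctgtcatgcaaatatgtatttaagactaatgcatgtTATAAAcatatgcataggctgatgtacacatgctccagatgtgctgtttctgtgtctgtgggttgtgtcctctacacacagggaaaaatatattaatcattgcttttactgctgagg

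The 3 type V genes encode a minor fibrillar collagen that is built into type I fibrils and limits their diameter. Col5a2 had -0.42 and -0.44 in bl6, 0.32 and 0.52 in bl10, and 0.75, 1.47 and 2.33 (lowest, median and highest) over the DS samples. Both bl10 samples were above both bl6 samples, and all 14 DS samples were above bl10. The difference of 1.53 ± 0.22 had the smallest p of the fibrillar class (limma adjusted p = 0.00119). Col5a3 differed by 1.18 ± 0.26 (limma adjusted p = 0.00984) and Col5a1 by 0.91 ± 0.21 (0.0108), also with no overlap between the DS and wild type samples. The lowest DS sample of Col5a3 was at 0.45 against 0.32 for the highest wild type sample, and for Col5a1 these were 0.39 and 0.23.

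Type XI collagen is the minor fibrillar collagen best known from cartilage. Col11a1 was higher by 0.71 ± 0.18 (limma adjusted p = 0.0206), and 13 of the 14 DS samples lay above all wild type samples. Its 2 pairs of spots gave 0.79 (limma adjusted p = 0.0367) and 0.63 (0.133). Against bl6, bl10, sspn and hDMD together the difference fell to 0.28 (limma adjusted p = 0.202), sspn and hDMD lying at 0.85 and 0.89. Col11a2 was the fibrillar gene that was not called, at -0.12 ± 0.19 (limma adjusted p = 0.778), with DS samples between -0.48 and 0.50 on both sides of the wild type samples.

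Of the basement membrane genes, Col4a1 and Col4a2 encode the chains of the most widespread type IV network. Col4a1 differed by 0.82 ± 0.25 (limma adjusted p = 0.048) and Col4a2 by 0.94 ± 0.26 (0.0325). Their wild type strains stood apart. Col4a1 was at -0.76 and -0.97 in the bl6 samples and at 1.33 and 0.33 in the bl10 samples, and Col4a2 at -0.88 and -0.77 in bl6 and at 1.03 and 0.61 in bl10. The DS samples lay at -0.05, 0.82 and 1.97 (lowest, median and highest) for Col4a1 and at 0.20, 0.70 and 2.43 for Col4a2. They were therefore above bl6 but mixed with bl10. Against bl10 alone the difference of Col4a1 turned to -0.01 (limma adjusted p = 0.992) and that of Col4a2 fell to 0.10 (0.967).

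Col4a1 and Col4a2 lie head to head and are read in opposite directions, and the shared stretch is shown because both genes were called. In RefSeq (GRCm38.p6) the start of Col4a2 on the plus strand is base 11312805 of chromosome 8 and the start of Col4a1 on the minus strand is base 11312826, 21 bases away. By these starts both genes are read through the stretch, each from its own strand, so it belongs to both and does not separate them. The sequence below covers chr8:11312801-11312830 on the plus strand, and capitals mark the 22 bases from one start to the other.
Col4a1 and Col4a2: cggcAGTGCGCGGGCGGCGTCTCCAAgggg

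Col18a1, whose protein carries endostatin at its end, differed by 0.98 ± 0.30 with an adjusted p just inside the threshold (limma, 0.0488). Its wild type samples were at 0.07 and -0.84 in bl6 and at 0.48 and 0.23 in bl10, and 12 of the 14 DS samples lay above all of them. Col15a1, which encodes the related type XV collagen that links the basement membrane to the tissue around it, had the next smallest p and was not called, at 0.92 ± 0.41 (limma adjusted p = 0.19). For Col15a1 1 array stood apart. The array that held sgcd sample 2 and sgcb2 sample 1 gave a log2 ratio of 4.82 between them, and these samples were the highest (3.38) and the lowest (-1.18) of the 14 DS samples. Without sgcd sample 2 the difference was 0.63 (limma adjusted p = 0.107), and without sgcd sample 1 it was 1.29 and called (0.0204). It was also called, at 0.93 (limma adjusted p = 0.0461), against bl6, bl10, sspn and hDMD together. The remaining type IV chains, Col4a3 to Col4a6, which in the kidney and other organs build specialised networks, were not called, with differences from -0.37 (Col4a3) to 0.12 (Col4a4).

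The largest differences of all lay outside these classes. Col8a1 was at 0.18 and -0.76 in the bl6 samples and at 0.03 and 0.58 in the bl10 samples, and the DS samples lay at 1.16, 2.72 and 6.14 (lowest, median and highest). There was no overlap, and the range of the DS samples was wider than for any other collagen gene. The difference was 7.44-fold (2.90 ± 0.56; limma adjusted p = 0.00419). The 250 bases before its start (RefSeq, GRCm38.p6, chr16:57754738-57754987, minus strand) are shown because this gene had the largest difference. They hold 4 copies of GGGCGG, all on the opposite strand and so written CCGCCC, in capitals, beginning 170, 73, 66 and 23 bases before the start.
Col8a1: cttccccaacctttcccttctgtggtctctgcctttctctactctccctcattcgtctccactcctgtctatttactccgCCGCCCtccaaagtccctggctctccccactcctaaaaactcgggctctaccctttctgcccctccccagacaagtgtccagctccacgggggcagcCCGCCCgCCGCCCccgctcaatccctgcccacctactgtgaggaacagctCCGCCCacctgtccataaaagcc

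Among the fibril-associated collagens, which decorate fibrils without forming them, Col14a1 and Col19a1 were higher and Col12a1, Col9a1 and Col9a3 were not called. Col14a1 was at -0.95 and -0.76 in bl6 and at 0.58 and 1.11 in bl10, below all DS samples at 1.39, 2.39 and 4.20 (lowest, median and highest). The difference of 2.51 ± 0.33 had the smallest adjusted p of the 28 genes (limma, 0.000412). Col19a1 was at 0.17 and 0.26 in bl6, -0.53 and 0.17 in bl10, and 0.57, 1.72 and 2.08 over the DS samples. It differed by 1.58 ± 0.25 (limma adjusted p = 0.00129) and, unlike the other called genes except Col1a1, was no higher in bl10 than in bl6. Col12a1 was at 0.37 ± 0.22, Col9a3 at -0.35 ± 0.33 and Col9a1 at -0.47 ± 0.29 (limma adjusted p = 0.343, 0.598 and 0.371).

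Type VI collagen is a trimer whose best-known form holds the chains of Col6a1, Col6a2 and Col6a3, and defects in these genes cause muscle disease. Col6a1 was higher by 1.09 ± 0.31 (limma adjusted p = 0.0326), and its 14 DS samples (0.37 to 2.04) did not overlap the wild type samples (-0.48 to 0.21). Col6a2 was at 0.30 ± 0.28 (limma adjusted p = 0.592), and the copies of its spot agreed poorly, with a correlation of 0.33 over the 26 arrays. Col6a3 was called at 0.68 ± 0.18 (limma adjusted p = 0.0288), but this mean joined 3 pairs of spots that disagreed. The first pair gave 1.71 ± 0.28 (limma adjusted p = 0.00163), the second 0.35 ± 0.25 (0.46) and the third -0.03 ± 0.24 (0.968). The copies of the first pair correlated at 0.997 over the arrays, those of the second at 0.37 and those of the third at 0.51. On the first pair alone Col6a3 was also called in mdx (1.77), sgca (1.56) and sgcd (2.46).

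**Figure D2:**
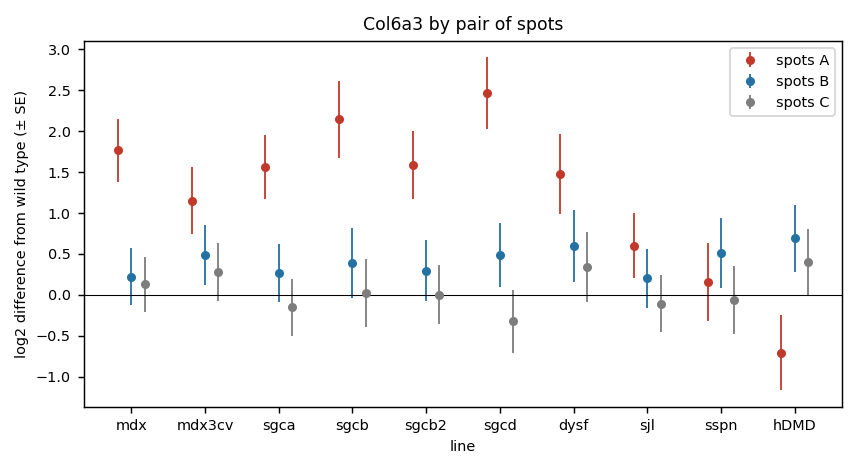
Log2 difference of Col6a3 from wild type in 10 lines (vertical axis, bars ± SE) for each of its 3 pairs of spots, A being the first. Pair A reaches 2.46 in sgcd and lies at -0.71 in hDMD, while pairs B and C lie between -0.33 and 0.69 in these lines.

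Col7a1, the anchoring fibril collagen of skin, was higher by 0.79 ± 0.23 (limma adjusted p = 0.0349), with 12 of 14 DS samples above all wild type samples. It was 0.43 without bl6 sample 1 and 0.22 (limma adjusted p = 0.469) against bl6, bl10, sspn and hDMD together, and stayed called in 12 of the 26 fits that left out 1 sample. The transmembrane collagens Col13a1 and Col17a1 were at 0.12 ± 0.25 and 0.04 ± 0.21, and Col10a1, the collagen of growth plate cartilage, at -0.16 ± 0.25. None of these 3 was called, and DS and wild type samples overlapped in each.

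The copies of a spot show how well these values repeat. Their correlation across arrays is not a measure of precision alone, as it is also low where a gene varies little between arrays. Over 31 pairs of copies, correlations across the arrays ran from 0.22 to 0.998 with a median of 0.65. Several genes that were not called had low values, among them Col17a1 at 0.22, Col4a6 at 0.24 and Col9a3 at 0.37. Among called genes Col5a1 was low at 0.39. The mean absolute log2 difference between copies was 0.47 for Col17a1, 0.64 for Col4a6 and 0.75 for Col9a3. Among called genes it was 0.62 for Col19a1, 0.55 for Col5a1, 0.42 for Col8a1 and 0.065 for Col4a2. On 5 arrays a DS sample was hybridised directly with a wild type sample. Col8a1 was higher in the DS sample on 5 of 5, by 0.94 to 6.86, and so were Col14a1 (0.74 to 4.99), Col19a1 (1.31 to 2.32), Col1a1 (1.12 to 3.13) and Col5a2 (0.38 to 2.95). Col4a2 was higher on 3 of 5, the array of sgcb2 sample 1 with bl10 sample 1 giving -0.36 and that of mdx sample 1 with bl6 sample 1 giving 2.22.

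The count of 15 changed when single samples were left out. Leaving out a sample removed both its arrays, so each sample hybridised with it also lost an array. The lowest counts all came from leaving out a sample on an array that joined a DS sample directly to a wild type sample. A part of the sample itself and a part of the lost direct array cannot be told apart. Leaving out mdx sample 1 gave 3, bl6 sample 1 or bl10 sample 2 gave 4, mdx3cv sample 2 gave 5 and bl10 sample 1 gave 6. It was 7 when sgca sample 1 or sgcb2 sample 1 was left out, 8 for bl6 sample 2 or 1 sample of the unnamed line, and 9 for sgcb2 sample 2. The share of all genes called higher fell in most of these fits too, to 1.04% without bl6 sample 1, 1.13% without mdx sample 1 and 1.33% without bl10 sample 2, but was 6.45% without that sample of the unnamed line. Col14a1, Col19a1 and Col5a2 stayed called in all 26 fits that left out 1 sample, Col8a1 in 25, and Col18a1 and Col4a1 in 8. The wild type strain also bore on the count. Against bl6 alone 12 were called and against bl10 alone 1, Col19a1 (1.77, limma adjusted p = 0.0238). The difference from bl10 was positive in 14 of the 15, but these genes were selected with the same DS and bl10 samples. That count is therefore no separate support for them. Of all genes, 5.99% were called higher against bl6 alone and 0.0917% against bl10 alone. Centring each array on its median left 10 called and moved the median of all genes from 0.06 to -0.03; centring and scaling left 6. Called higher were then 4.36% and 1.68% of all genes. Of all calls, 82.7% were higher without centring, 71.1% with it and 65.5% with scaling.

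**Figure D3:**
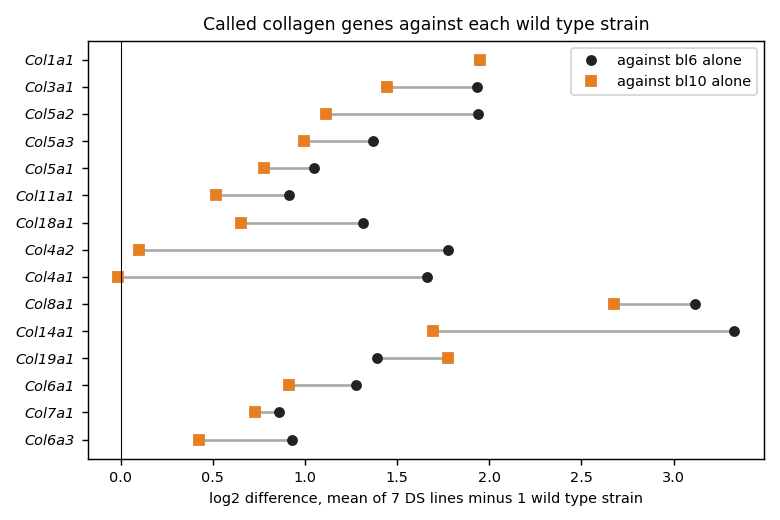
Log2 difference between the mean of the 7 DS lines and a single wild type strain for the 15 called collagen genes, with circles for bl6 and squares for bl10. Most squares lie left of their circles, farthest for Col4a1 (1.66 and -0.01), Col4a2 (1.78 and 0.10) and Col14a1 (3.33 and 1.70).

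The wild type strains were then compared directly. Between bl10 and bl6, 0 collagen genes were called by limma, where 0.0153% of all genes were, and 5 were higher in bl10 at an unadjusted p under 0.05 (5.43% of all genes). These were Col4a2 (1.68 ± 0.42), Col4a1 (1.67 ± 0.40), Col14a1 (1.63 ± 0.52), Col13a1 (0.94 ± 0.40) and Col5a2 (0.82 ± 0.36), with limma adjusted p from 0.293 to 0.583.

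Single lines were compared with wild type next, with 2 samples each. In mdx 4 collagen genes were called higher (1.22% of all genes), namely Col8a1 (3.56 ± 0.78), Col14a1 (2.11 ± 0.46), Col19a1 (1.84 ± 0.34) and Col5a2 (1.77 ± 0.31), with limma adjusted p from 0.0112 to 0.0296. In sgca the same 4 were called with Col5a1 (5.98% of all genes), and here Col8a1 reached 4.48 ± 0.80 (limma adjusted p = 0.00345) and Col14a1 3.34 ± 0.47 (0.000647). In sgcd 6 were called (1.65% of all genes): Col8a1 (3.79 ± 0.89), Col14a1 (3.49 ± 0.52), Col1a1 (3.00 ± 0.77), Col5a2 (2.17 ± 0.36), Col5a3 (1.87 ± 0.42) and Col19a1 (1.84 ± 0.39), with limma adjusted p from 0.00469 to 0.0466. In sgcb2 it was Col14a1 alone (2.66 ± 0.49; limma adjusted p = 0.0247; 0.183% of all genes). In mdx3cv and sgcb 0 collagen genes were called by limma, against 0% and 0.107% of all genes called higher, while 11 and 12 were higher at an unadjusted p under 0.05 (5.52% and 9.62% of all genes). Against bl10 alone 0 were called in mdx, sgca, sgcb2 and sgcd, where at most 0.168% of all genes were called. Of the 7 muscle fibre markers measured in sgca, 4 were lower at an unadjusted p under 0.05 (6.67% of all genes). These were Acta1 (-1.49), Tnni2 (-1.40), Pvalb (-1.26) and Tnnt3 (-0.86). Of these Tnni2, a fast fibre troponin gene, was called lower (limma adjusted p = 0.0267; 1.44% of all genes), and the median over the 7 was -0.86. In the other named DS lines this median was 0.724 in sgcb, 0.265 in mdx3cv, 0.022 in sgcb2, -0.105 in sgcd and -0.164 in mdx. The part of the muscle fibre markers in the collagen differences of sgca was not tested.

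These counts also moved with single samples. In mdx the count was 0 when bl6 sample 1, mdx sample 1 or mdx3cv sample 2 was left out, 1 for sgcb2 sample 2, and 2 for either bl10 or either sspn sample. In sgca it was 0 when its own sample 1 was left out, 2 for bl6 sample 2, 3 for bl10 sample 1 or mdx sample 2, 8 for sjl sample 2 or hDMD sample 1, and 9 for sjl sample 1. In sgcd it was 0 when its own sample 2 was left out, 1 for its sample 1 or either sgcb2 sample, 2 for bl10 sample 1, 3 for bl6 sample 1, mdx sample 1, mdx3cv sample 2 or sgcb sample 1, and 10 for sjl sample 2. In sgcb2 the count was 0 in 14 of the 26 fits that left out 1 sample. The share of all genes called moved as well over these fits, from 0% to 7.06% in mdx, 0.0765% to 13.4% in sgca, 0% to 4.10% in sgcd and 0% to 0.688% in sgcb2.

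The lines differed in which collagen led. Col8a1 was the largest in mdx, mdx3cv (2.25 ± 0.82), sgca, sgcb2 (2.85 ± 0.84) and sgcd, but in sgcb it was at 1.11, with samples at 1.16 and 1.17. In sgcb Col1a1 led at 3.27 ± 0.84 (samples at 3.82 and 2.85; limma adjusted p = 0.247), followed by Col14a1 (2.12 ± 0.56) and Col4a2 (1.94 ± 0.45). The samples of sgca lay far apart for Col8a1, at 6.14 and 2.69, as did those of mdx at 4.18 and 2.58. Between the mean of mdx and mdx3cv and the mean of the sarcoglycan-deficient lines, limma called 0 collagen genes (0.0153% of all genes), and at an unadjusted p under 0.05 Col14a1 alone was lower in the former (1.44% of all genes), at -0.84 ± 0.36 (limma adjusted p = 1).

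**Figure D4:**
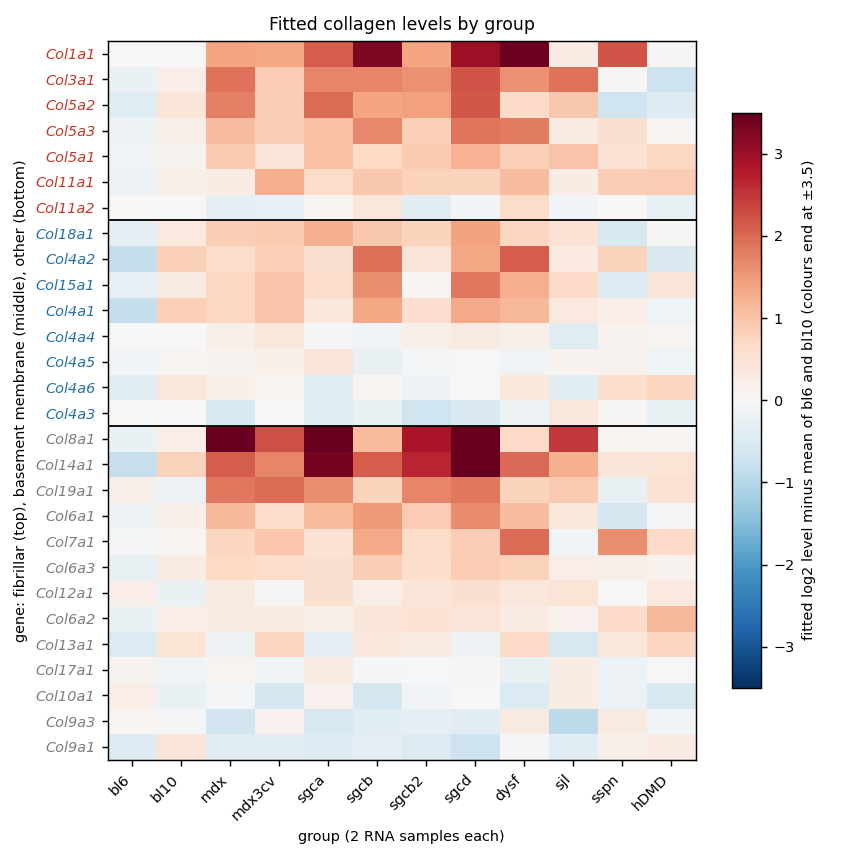
Fitted log2 level of the 28 collagen genes (rows, by class) in 12 groups (columns, 2 samples each) relative to the mean of bl6 and bl10, red for higher and blue for lower, with colours ending at 3.5. Col8a1 is at the end of the red scale in mdx, sgca and sgcd (3.56, 4.48 and 3.79), Col14a1 is darkest in sgcd and sgca (3.49 and 3.34) and Col1a1 in dysf and sgcb (3.42 and 3.27), and sspn and hDMD are pale for most rows except Col1a1 (2.19) and Col7a1 (1.62) in sspn.

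The dysferlin-deficient lines address a defect of membrane repair rather than of the dystrophin complex. Against wild type limma called 0 collagen genes (0.0459% of all genes were called higher), 13 were higher at an unadjusted p under 0.05 (7.20% of all genes) and 0 lower (1.57%). The median was 0.65 over the 28 genes and 0.93 over the fibrillar ones, against 0.12 over all genes. The largest were Col1a1 (1.86 ± 0.64), Col3a1 (1.76 ± 0.55), Col14a1 (1.62 ± 0.43) and Col8a1 (1.56 ± 0.74), with limma adjusted p from 0.244 to 0.548. These comparisons share the wild type samples with those of the DS lines.

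The pair of dysferlin-deficient lines did not look alike. In dysf Col1a1 was at 3.42 ± 0.86 with samples at 2.65 and 4.27, the highest fitted level of this gene in any group, while in sjl it was at 0.30 with samples at 1.54 and -0.95. Col8a1 was at 0.66 in dysf, with samples at 0.89 and 0.36, and at 2.46 in sjl, with samples at 3.77 and 1.41. Col4a2 was at 2.11 ± 0.47 in dysf (samples at 2.00 and 2.34) and at 0.33 in sjl (0.51 and 0.04). Col7a1 was at 1.94 ± 0.40 in dysf and -0.10 in sjl. limma called 0 collagen genes in either line (0.107% and 0.199% of all genes called higher), with 10 and 6 higher at an unadjusted p under 0.05 (6.70% and 7.48% of all genes). The difference between dysf and sjl was not tested.

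The DS and dysferlin-deficient lines were compared directly, a difference in which the wild type groups cancel. Arrays with wild type samples still enter the fit that estimates it. limma called 0 collagen genes (0.122% of all genes), with 4 higher in the DS lines and 1 lower at an unadjusted p under 0.05 (3.78% and 4.66% of all genes). Higher were Col8a1 (1.33 ± 0.56), Col14a1 (0.89 ± 0.33), Col19a1 (0.74 ± 0.25) and Col5a2 (0.72 ± 0.23), with limma adjusted p from 0.316 to 0.517. Lower was Col11a2 (-0.40 ± 0.19; limma adjusted p = 0.587). Col1a1 (0.09 ± 0.49), Col3a1 (-0.07 ± 0.42) and Col5a1 (-0.01 ± 0.21) were near 0, but the SE of Col1a1 leaves room for a difference of the size seen in Col14a1.

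Sarcospan is a small protein bound to the sarcoglycans, and hDMD mice carry the human dystrophin gene. In both lines limma called 0 collagen genes (0.107% of all genes called higher in sspn and 0% in hDMD), and 3 were higher at an unadjusted p under 0.05 in each, against 8.35% of all genes in sspn and 3.84% in hDMD. In sspn these were Col1a1 (2.19 ± 0.84, samples at 1.55 and 2.75), Col7a1 (1.62 ± 0.39) and Col11a1 (0.85 ± 0.31). Col8a1 (0.10), Col3a1 (0.04) and Col14a1 (0.42) were near wild type in sspn, and Col5a2 was at -0.70 with samples at -0.56 and -0.86. In hDMD the highest was Col6a2 (1.17 ± 0.46), with Col11a1 (0.89 ± 0.30) and Col5a1 (0.72 ± 0.34), while Col3a1 was at -0.71 with samples at -1.52 and 0.11.

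**Figure D5:**
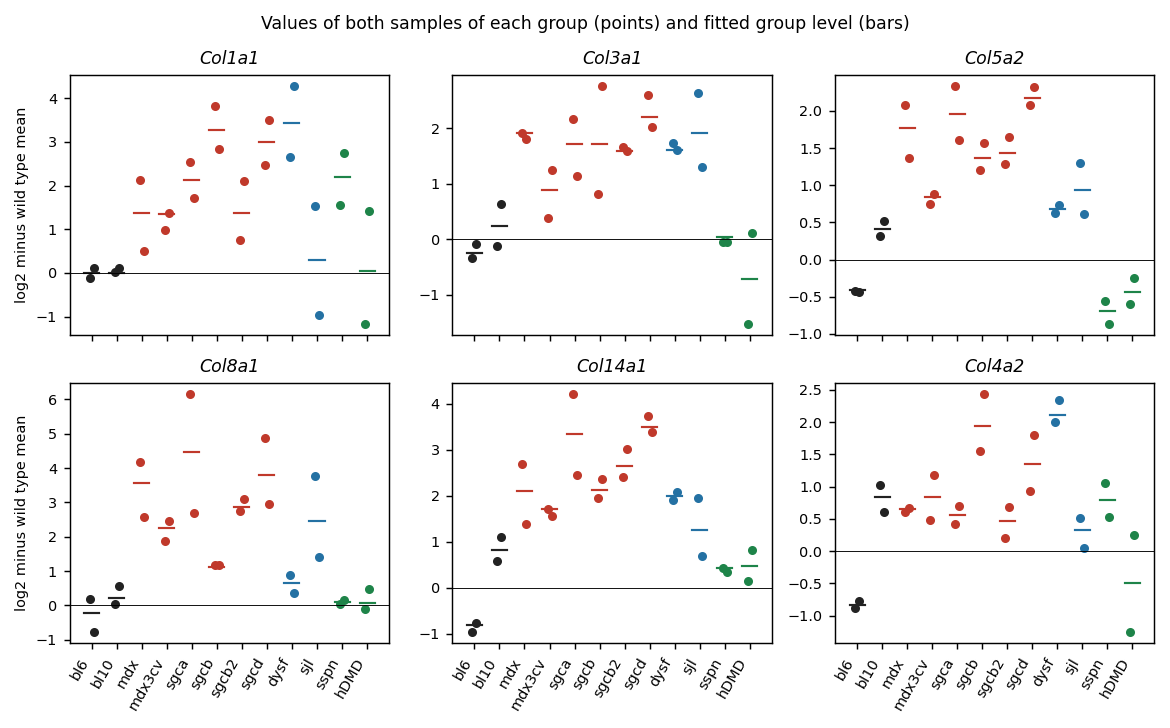
Log2 value of both samples (points) and fitted level (bars) of 6 collagen genes in 12 groups, relative to the mean of bl6 and bl10; black marks wild type, red the DS lines, blue dysf and sjl, and green sspn and hDMD. Col8a1 and Col14a1 are high in the red groups and low in the green ones, Col1a1 is high in sspn and dysf as well, and the bl10 samples of Col4a2 (1.03 and 0.61) lie among the red points.

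Genes for proteins that fold, process, cross-link or bind collagen were examined from a list of 42 symbols, of which 25 were measured. Some of the symbols are older names of other genes on the list, so the list holds fewer genes than symbols. The list holds enzymes and chaperones, and also receptors and matrix proteins. In the DS lines 7 were higher and 0 lower, with a median of 0.46, against 6.45% called higher and a median of 0.06 over all genes. Loxl1 (1.92 ± 0.42) and Loxl3 (1.39 ± 0.30) encode enzymes of the family that starts cross-links, and Plod2 (1.65 ± 0.31) the enzyme that modifies lysines for them. P3h3 (1.31 ± 0.26) and Crtap (1.08 ± 0.26) belong to prolyl 3-hydroxylation, and limma adjusted p for these 5 ran from 0.00367 to 0.0152. Sparc (1.42 ± 0.40), a collagen-binding protein of the matrix, and P3h1 (0.76 ± 0.22) were the others called. The collagen chaperone gene Serpinh1 was at 0.11 ± 0.19 (limma adjusted p = 0.79). limma called 0 of the 25 in the dysferlin-deficient lines, and 6 were higher at an unadjusted p under 0.05 (7.20% of all genes).

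Some markers of other cells were also higher in the DS lines, where 6.45% of all genes were called higher and 1.35% lower. In bulk RNA fewer or more cells of a type and less or more RNA per cell cannot be told apart. Of 7 measured fibroblast markers 4 were higher in the DS lines, S100a4 (1.98 ± 0.43), Fap (1.60 ± 0.29), Dpt (1.21 ± 0.31) and Dcn (1.07 ± 0.33). Pdgfra (0.57 ± 0.19), Postn (0.42 ± 0.30) and Thy1 (0.185 ± 0.264) were not called. The median over the 7 fibroblast markers lay between 0.47 and 1.67 in the DS samples and between -0.18 and 0.34 in the wild type samples, without overlap. Of 7 macrophage markers 4 were higher, Ctss (3.06 ± 0.67), Ptprc (2.85 ± 0.47), Adgre1 (2.76 ± 0.52) and Cd68 (2.46 ± 0.59). Itgam (1.24 ± 0.47) and Cd14 (1.12 ± 0.47) were not called, nor was Lyz2, which had the other sign at -0.44 ± 0.23. Sample medians over the 7 macrophage markers ran from 0.38 to 3.80 in the DS samples and from -0.95 to 1.18 in wild type. Of 4 tendon markers Tnmd was higher (1.33 ± 0.29). limma called 0 of 7 endothelial, 4 Schwann cell, 4 adipocyte, 7 muscle fibre and 2 smooth muscle markers. At an unadjusted p under 0.05, 1 of these was higher, in the Schwann cell list, against 16.1% of all genes. Of 5 cartilage and bone markers Dmp1, an osteocyte gene, was lower (-1.10 ± 0.25), Ibsp was at 1.01 ± 0.31 (limma adjusted p = 0.0513) and the others were not called.

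Markers also differed between the lines. Ibsp, which encodes bone sialoprotein, was called higher in sspn (3.57 ± 0.54), dysf (3.34 ± 0.55), sgcb (2.82 ± 0.54) and sgca (2.54 ± 0.45), with limma adjusted p from 0.00314 to 0.0346. In the same lines Dmp1 had the other sign, being called lower in sgca (-1.39; limma adjusted p = 0.023) and not called at -0.93 in dysf, -0.92 in sspn and -0.88 in sgcb. The median over the 5 cartilage and bone markers was 0.76 in sspn, 0.34 in dysf, 0.19 in sgcb and 0.04 in sgca. The median over 4 tendon markers was 1.84 in dysf, 1.45 in sgcb, 0.80 in sspn, 0.75 in mdx, 0.74 in sgcd, 0.49 in sgcb2, 0.46 in sgca, 0.21 in sjl, 0.14 in mdx3cv and -0.19 in hDMD. The 3 lines in which Col8a1 was highest had the highest macrophage medians, 3.13 in sgca, 3.58 in sgcd and 2.73 in mdx, against 0.60 in sgcb, 0.18 in dysf and -0.60 in sspn. The part of these cells in the collagen differences was not tested.

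Promoter windows of 250 bases before to 50 bases after the start were matched by symbol for 22 of the 28 genes from RefSeq (GRCm38.p6), with 1 window per gene, among them 12 of the 15 called genes. Short motifs were searched on both strands in these windows and in those of 27025 genes. TATAAA, which core promoters with a TATA box hold near the start, was in 1 of the 12 called and 4 of the 10 other collagen genes, and in 14.2% of all windows. GGGCGG, the core of the GC box, was in 7 of 12 and 4 of 10, against 35.9% of all. The windows of Col4a1 and Col4a2 overlap, and the GGGCGG in the stretch printed above was counted for both genes. CCAAT was in 5 of 12 and 2 of 10 (37.9% of all), TGANTCA, the letters bound by AP-1, in 1 of 12 and 0 of 10 (7.93%), and CANNTG, the E-box, in 5 of 12 and 6 of 10 (72.1%). The window with TGANTCA was that of Col6a1. Where a collagen gene had more than 1 window, only the window at the lowest chromosome position was counted. For Col18a1, which was called, the window left out held 3 GGGCGG and 1 CCAAT, and the counted window held none. For Col9a1, which was not called, the window left out held 1 CCAAT and 1 CANNTG, and the counted window held none. No motif contains another, though the ends of some can share letters, and a match is a description of the sequence and not of binding.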

How the data were processed

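RNA of 26 mouse samples was measured on 26 arrays. The deposited table, made by the authors, holds 1 value per spot and array on a natural log scale: on 24 arrays repeated values followed a generalized logarithm with natural units within 1%, and 2 arrays gave no such series. The generalized log understates the change of dim spots. Dyes, scanner and normalization are not given in the sources used here. The plan of the tests had assumed log2 ratios. As the values were taken as natural log, they were divided by 0.6931 to give log2. Array medians ran from -0.0740 to 0.173 (natural log), and their centring stays unknown. Of 16416 rows, 13662 named 1 gene in GEO's platform annotation, 14 several and 2740 none; rows of a gene were averaged.

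Generalized least squares was fitted with 1 dye term, 12 group terms and the RNA sample as a random effect (variance ratio 0.207), then limma 3.58.1 in R 4.3.3 (13 residual and 7.38 prior degrees of freedom), with Benjamini-Hochberg adjustment over 6540 genes. The fit was tested on simulated data. The number of arrays limits the precision. Alternatives changed scaling, random effect, array weights, rows, log base, wild type group and samples. Members and gene lists were chosen with earlier results of these data known. Named are collagen genes called in any comparison, the 3 of each class with the smallest p in the DS comparison and the genes the lines lack. At most 5 of each other list were named by their p in the DS comparison. Sparc, P3h1, Serpinh1, Ibsp, the muscle fibre markers, the uncalled fibroblast and macrophage markers and the remaining collagen genes were chosen after their values were seen. The own results of 1 sarcoglycan-deficient line are not reported here.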

Additional observations from a re-analysis of the deposited data

Results flagged for a closer look

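In 6 cases both samples of sspn or hDMD lay on the other side of the wild type mean from every DS sample, 5 of the 28 collagen genes in sspn (17.9%) and 1 in hDMD (3.57%). Over all genes the same held for 126 (1.93%) in sspn and 199 (3.04%) in hDMD. These differences were not tested, and sspn and hDMD have 2 samples each. The difference between the DS lines and sspn was 2.24 for Col5a2, 1.87 for Col19a1, 1.72 for Col3a1, 1.69 for Col6a1 and 1.55 for Col18a1 on the log2 scale, the DS lines being higher in each. For Col5a2 the DS lines also lay 1.95 above hDMD.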

How the results depend on the processing

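The number of collagen genes called was recomputed under each alternative. With arrays centred and scaled alike it was 6 in the DS lines (168 of all genes), 0 in mdx and 3 in sgca. With bl10 alone as wild type it was 1 in the DS lines (10 of all genes) and 0 in mdx, sgca, sgcb2 and sgcd, and Col4a1 turned to -0.013; with bl6 alone it was 8 in sgca and 1 each in sgcb, dysf and the dysferlin-deficient lines (12.2%, 0.107%, 0.0917% and 0.107% of all genes). With bl6, bl10, sspn and hDMD together as the comparison group, 1029 of all genes were called in the DS lines, and 4 collagen genes in the dysferlin-deficient lines, 2 in sgcb, 2 in sgcb2, 1 in mdx3cv and 1 in dysf (0.612%, 0.55%, 0.214%, 0.0459% and 0.153% of all genes). Array weights gave 13 in sgcd, 11 in sgca, 5 in sgcb2, 2 in mdx3cv, 2 between bl10 and bl6, 1 in sspn and 1 between dystrophin- and sarcoglycan-deficient lines; of all genes they gave 5.73%, 21.2%, 2.14%, 0.566%, 1.99%, 4.71% and 1.90%, in the same order. Without the random effect there were 3 in sgcb2 and 2 in dysf (0.55% and 0.214% of all genes). The first row of each gene alone gave 11 in the DS lines (348 of all genes) and 2 in mdx. The second row alone gave 7 in the DS lines (395 of all genes). The third pair of Col6a3 spots gave -0.025. This alternative, and the DS mean without sgcb2 (15 called, with 502 of all genes), were chosen after seeing the data. The cause of these shifts was not tested. Leaving out 1 sample at a time gave 3 to 15 in the DS lines (74 to 679 of all genes), 0 to 5 in mdx, 0 to 9 in sgca, 0 to 3 in sgcb2, 0 to 10 in sgcd, 0 to 1 in mdx3cv, dysf, sspn, hDMD and between DS and dysferlin-deficient lines, and 0 throughout in sgcb, sjl, the dysferlin-deficient lines and the other comparisons. Taking the values as log2 multiplies all of them by the same constant, which makes every difference smaller and could change no count. Where no share of all genes stands beside a count, a change in collagen genes cannot be told apart from a change in all calls.

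The replicate block, with the sample number as a term, gave 14 called in the DS lines (524 of all genes), losing Col4a1 (limma adjusted p = 0.0553). Whether the numbers pair the samples is not known. Deviations of same-numbered samples correlated from -0.67 to 0.71 over 78 pairs of groups, with 33 over 0.1. Each array enters the deviations of both samples it held, so these correlations depend partly on the hybridisation and cannot decide it. Spots with no intensity give no measure of signal over background.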
